A study of Mus musculus with 8 samples.

Results

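The nuclear genes of oxidative phosphorylation were followed through single-cell libraries of the mouse colonic lamina propria, the connective tissue layer beneath the gut epithelium. They were picked by symbol alone, with no use of measured values, as every gene whose symbol begins with Ndufa, Ndufb, Ndufc, Ndufs, Ndufv, Uqcr, Cox4 to Cox8 or Atp5, together with Sdha to Sdhd and Cyc1, leaving out pseudogene symbols. Of the 31053 rows of the deposited gene list, 94 met that rule and carried 93 distinct symbols, since Atp5o is listed on 2 rows. By their symbols, 38 belong to complex I, 8 are complex I assembly factors (the Ndufaf genes), 4 belong to complex II, 9 to complex III, 18 to complex IV and 17 to complex V. The symbols are close to the function but do not match it throughout. Ndufa4 is named for complex I and is now placed with complex IV. Cox7a2l has been described as a factor in the joining of complexes III and IV, which was not measured here. No UMI fell on 2 of the rows in any barcode used here.

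The series sampled colonic lamina propria of C57BL/6 mice aged 10 to 12 weeks, kept free of specific pathogens, and compared mice with and without a substitution in RORγt, the transcription factor of Th17 cells, with and without colitis. Wildtype and mutant mice were each studied without treatment and after colitis, with 2 libraries in each of the 4 groups. Colitis was brought on with DSS (dextran sulfate sodium, a chemical toxic to the gut lining) at 2% in the drinking water for 7 days, followed by 3 days on plain water, while untreated mice had regular water for 10 days, and tissue was taken on day 10. The series title names the mutation S182A, whereas the titles of the mutant samples carry S203A, and a single changed residue cannot be seen in UMI counts, so the counts do not check the genotype. Cells were released with collagenase, DNase and dispase, enriched for CD4+ T cells with a magnetic kit, and about 10000 were loaded for each 3' library with unique molecular identifiers (UMIs, which count each captured RNA molecule once). Nothing ties a library to 1 or to several mice, so the p-values below measure the spread between libraries.

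The 8 libraries held 100673 barcodes and 347566245 UMIs, from 10563 to 16133 barcodes each. Pairs of libraries shared between 21 and 64 barcode sequences, at most 0.577% of the smaller library. Of the 96721 barcodes with at least 400 genes and under 20% mitochondrial UMIs, 27420 were on the authors' list of kept cells, and all of these held a Cd4 UMI. Clustering, done without the oxidative phosphorylation genes, gave 30 clusters, of which 9 were T cell clusters. The listed cells in T cell clusters, 20710 in all, are called CD4 T here, and T cell subsets are parts of these, while the other populations hold every barcode of their clusters. Despite the enrichment, the libraries held many barcodes of other types, among them 11044 macrophage or monocyte-like, 10181 fibroblast-like and 3941 B-like ones. In CD4 T barcodes all 8 T cell markers were detected, with a summed level of 0.361% to 0.486% of UMIs, against 0.0180% to 0.0290% in B-like barcodes. That T cell marker sum was itself lower after DSS (0.361% to 0.418%) than before (0.443% to 0.486%), with no overlap between libraries.

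Oxidative phosphorylation takes place at the inner mitochondrial membrane. Complex I takes electrons from NADH and complex II (succinate dehydrogenase, which is also an enzyme of the tricarboxylic acid cycle) takes them from succinate, complex III and cytochrome c pass them to complex IV, which reduces oxygen, and complex V, the ATP synthase, uses the resulting proton gradient to make ATP. Most subunits are encoded in the nucleus and the rest by mitochondrial DNA, except that complex II is wholly nuclear. Immune cells are known to alter the balance of glycolysis and respiration as they rest, divide or respond to injury.

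Promoters of these genes are known to carry sites for the nuclear respiratory factor NRF1, for ETS factors such as GABP, and for YY1, and 4 of them are shown to illustrate such letters. They were chosen because they hold a match and their genes were called in more than 1 population, and many genes called as often have none, so the choice says nothing of how common a match is: Sdhd and Atp5g2 were higher after DSS in CD4 T barcodes, and Ndufa11 and Atp5k were lower after DSS in macrophage-like and in B-like barcodes. Each run is the last 120 bases before the start of the gene, from RefSeq on GRCm38.p6, written 5′ to 3′ on the strand of the gene. Capitals mark an ETS match, CCGGAAG or its reverse complement, in Sdhd, and the overlapping NRF1 matches of the 2 strands, GCATGCGC and its reverse complement, in the other 3.
Sdhd (chr9:50603850-50603969, minus strand): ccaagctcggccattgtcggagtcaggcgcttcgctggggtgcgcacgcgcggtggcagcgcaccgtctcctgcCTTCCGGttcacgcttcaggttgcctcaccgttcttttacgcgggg
Atp5g2 (chr15:102671048-102671167, minus strand): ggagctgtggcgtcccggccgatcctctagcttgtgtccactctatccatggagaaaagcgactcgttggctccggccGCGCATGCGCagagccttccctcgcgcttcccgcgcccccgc
Ndufa11 (chr17:56717642-56717761, plus strand): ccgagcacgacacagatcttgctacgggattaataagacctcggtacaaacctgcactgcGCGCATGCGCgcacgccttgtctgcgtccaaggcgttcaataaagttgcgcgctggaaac
Atp5k (chr5:108434400-108434519, minus strand): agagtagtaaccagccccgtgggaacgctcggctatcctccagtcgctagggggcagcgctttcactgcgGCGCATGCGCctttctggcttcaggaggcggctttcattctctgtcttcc

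RefSeq promoter windows of 300 bases, from 250 before to 50 after the start, were found for 76 of the 93 symbols. On either strand, the NRF1 letters GCATGCGC stood in 12 of the 76 windows (15.8%) against 2.80% of all 27025 promoters, and the ETS letters CCGGAAG in 17 (22.4%) against 9.12%. The YY1 letters AANATGGC stood in 17 (22.4%) against 6.23%, and TCAAGGTCA, the site of estrogen-related receptors, in 2 (2.63%) against 0.407%. A match describes the letters of the window and is not a measured site. Only in Ndufb11, Ndufb5, Ndufaf3, Ndufb10 and Ndufs8 did a YY1 match lie wholly before the start of the gene. In the other genes with the YY1 letters the match lay at or after it. Among the genes that were lower after DSS in macrophage-like barcodes, 38 had a window, of which 5 held the NRF1, 7 the ETS and 10 the YY1 letters. Among the other 35 tested genes with a window the numbers were 7, 10 and 7. Among the B-like barcodes the numbers were 3, 9 and 8 of 29 for the genes that were lower, and 8, 7 and 8 of 37 for the others.

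The summed level of the 94 genes, as a share of all UMIs of a population, differed widely between cell types. Among the named populations, the lowest levels were those of neutrophil-like barcodes, at 0.770% ± 0.0522 (SD, n = 4 libraries, all DSS-treated), and plasma-like barcodes, at 0.954% ± 0.0813 (n = 8). Naive or central memory-like T cells came next at 1.09% ± 0.0562, followed by macrophage or monocyte-like (1.20% ± 0.0731), B-like (1.24% ± 0.126) and fibroblast-like barcodes (1.36% ± 0.0612). The highest levels were those of squamous epithelium-like barcodes, at 2.53% ± 0.197 (n = 5, of which 4 were DSS-treated), of mural or smooth muscle-like barcodes, at 2.26% ± 0.316, and of cycling T cells, at 2.06% ± 0.0525. From plasma-like up to fibroblast-like barcodes each population overlapped its neighbour in this order over libraries, as did the 3 highest, so only distant positions are separate. The plasma-like cluster was led by immunoglobulin genes such as Igkc and Igha, which enter the UMI total that the share is taken over. Its median was 8152 UMIs per barcode, against 1853 in the naive cluster. A low share there does not mean few UMIs of these genes per barcode, and the part of immunoglobulin UMIs was not tested. The populations are clusters of the same libraries, and these levels are a description without a test.

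Within CD4 T barcodes, with 1.54% ± 0.0640 in all, the subsets kept an order from naive or central memory-like at the bottom to cycling at the top. Th1 or cytotoxic-like barcodes stood at 1.39% ± 0.113 and Th17-like at 1.44% ± 0.0954, within each other's spread, and Treg-like at 1.55% ± 0.0612. Naive or central memory-like barcodes ranged from 1.03% to 1.16% and cycling ones from 1.98% to 2.13% over the 8 libraries, with no overlap. The step from naive to cycling cells was seen in the sum of each complex: complex I went from 0.275% ± 0.0237 to 0.577% ± 0.0199, complex II from 0.0148% ± 0.00248 to 0.0282% ± 0.00423, complex III from 0.143% ± 0.0112 to 0.210% ± 0.0128, complex IV from 0.322% ± 0.0164 to 0.569% ± 0.0170, and complex V from 0.329% ± 0.0143 to 0.655% ± 0.0141. Some genes went the other way: Cox7a2l was at 569 ± 57.8 CPM in naive and 311 ± 44.2 CPM in cycling cells, and Uqcrh, the hinge protein of complex III, at 805 ± 64.9 and 696 ± 33.2 CPM. The 13 mitochondrially encoded genes of the same complexes did not follow this order, at 3.73% ± 0.388 in naive and 3.52% ± 0.378 in cycling cells. Median UMIs per barcode of these clusters, over all their barcodes, were 1853 in the naive and 5463 in the cycling cluster, and the part of depth in the difference was not tested.

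**Figure D1:**
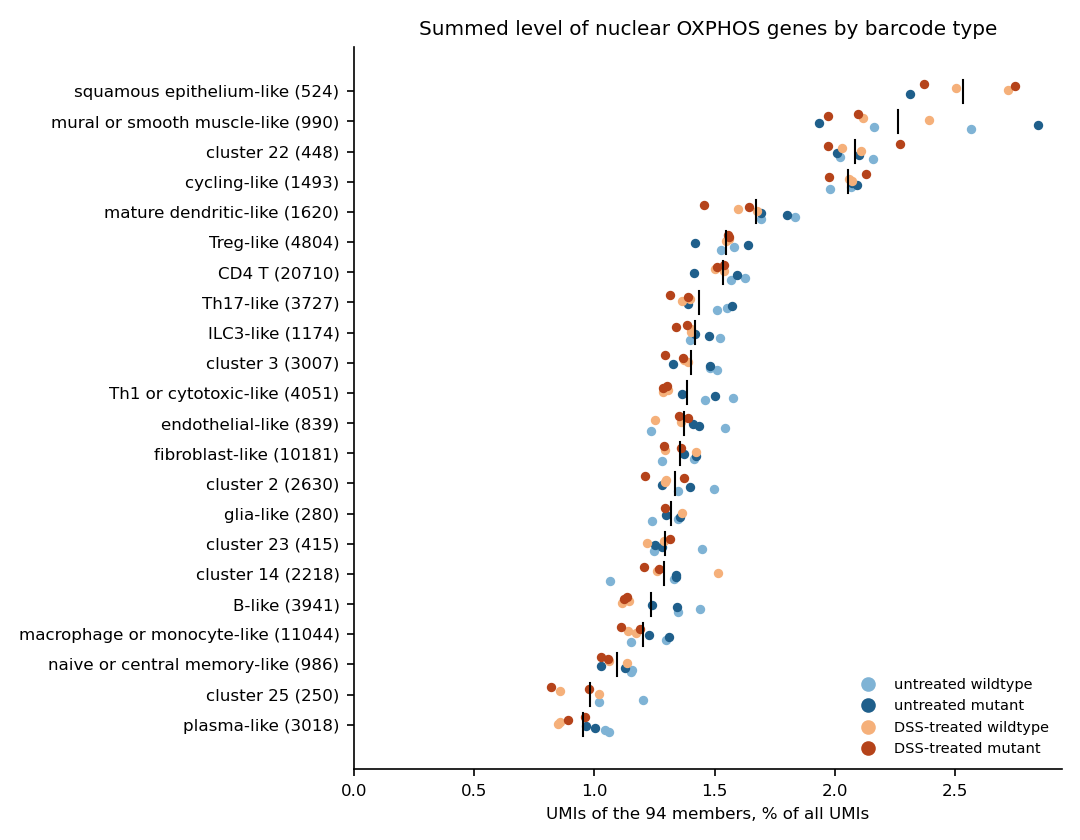
Share of all UMIs (%, horizontal axis) that fell on the 94 genes, for populations with at least 20 barcodes in most libraries (number of barcodes in brackets). Neutrophil-like barcodes and clusters 27, 28 and 29 are not shown. Each point is 1 library with at least 20 barcodes of the population, coloured by group, and the bar is the mean over libraries. Naive or central memory-like T cells lie near 1.09% and cycling T cells near 2.06%, with squamous epithelium-like barcodes highest at 2.53%.

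Some genes stood apart between T cell subsets, and the 4 named here were chosen after their values were seen. Of the 79 genes with a mean of at least 10 CPM in each subset, 15 (19%) were lower in Th17-like than in Treg-like barcodes in all 8 libraries and 2 (2.53%) were higher, against 12.6% lower and 7.35% higher over the 6597 genes at that level. Sdhc, a membrane anchor of complex II, was lower in Th17-like (20.7 ± 4.01 CPM, the usual depth-scaled count) than in Treg-like barcodes (31.5 ± 5.604 CPM) in all 8 libraries. Ndufv2, a core subunit of the NADH arm of complex I, was lower in Th17-like barcodes in all 8 as well, at 51.7 ± 9.35 against 72.2 ± 8.73 CPM. Cox7c, a small complex IV subunit, and Atp5h, of the stalk of complex V, were higher in Th17-like barcodes in all 8 libraries, at 627 ± 61.5 against 554 ± 45.9 CPM and at 546 ± 54.0 against 468 ± 28.7 CPM. These CPM are per library and population, and since both subsets are clusters of the same cells no test was made.

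Several subunits come in isoforms from separate genes, and the minor isoforms were found in particular barcode types. Cox4i2, the oxygen-responsive form of complex IV subunit 4, made up 16.6% of Cox4 UMIs in cluster 14 (1420 of 8548 UMIs), a cluster led by the vascular genes Fabp4, Plvap and Rgs5, 14.4% in the small cluster 27 (133 of 922 UMIs), and 0.03% in CD4 T barcodes (14 UMIs). Ndufa4l2, a hypoxia-induced relative of Ndufa4, made up 41.3% of the pair in cluster 14 (1613 of 3906 UMIs). It stood there at 138 ± 37.4 CPM (SD, n = 8), and had 8 UMIs in CD4 T barcodes. Cox6a2, the heart and muscle form of subunit 6A, made up 74.3% of its pair in cluster 28 (349 of 470 UMIs), against 0.07% in CD4 T barcodes. The 137 barcodes of that unnamed cluster were led by Ly6d and Siglech. Siglech is a gene of plasmacytoid dendritic cells, while Ly6d was also among the leading genes of B-like and squamous epithelium-like barcodes. Cox6b2, known as the testis form of subunit 6B, made up 20.8% of its pair in fibroblast-like barcodes (3904 of 18789 UMIs), from 17.4% to 25.5% in its 4 clusters, 23.5% in the 165 barcodes of cluster 27, and 0.36% in CD4 T barcodes (71 UMIs). Cox8b, the muscle form of subunit 8, reached 3.66% in fibroblast cluster 16 and had 1 UMI in CD4 T barcodes. Cox7b2 had no UMI and Cox8c had 1.

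Other isoform pairs shifted in balance between cell types that all use both. Cox7a2 and Cox7a2l split as 22.2% Cox7a2 to 77.7% Cox7a2l in naive or central memory-like T cells. The Cox7a2 share was 36.5% in B-like, 43.1% in macrophage-like and 44.8% in CD4 T barcodes, 58.7% in cycling T cells and 64.6% in plasma-like barcodes. Of the 3 genes for the identical mature c subunit of complex V, Atp5g2 gave 33.2% of UMIs in plasma-like barcodes, 39.4% in Th17-like, 46.1% in Treg-like and 53.5% in naive or central memory-like ones. In plasma-like barcodes Atp5g1 gave 43.2%, against 25.2% in CD4 T barcodes. These shares are pooled over treated and untreated libraries, whose mix differs between populations, and no spread over libraries is given. Atp5g2 was itself higher after DSS in Treg-like barcodes, and the part of treatment in the shares was not tested.

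**Figure D2:**
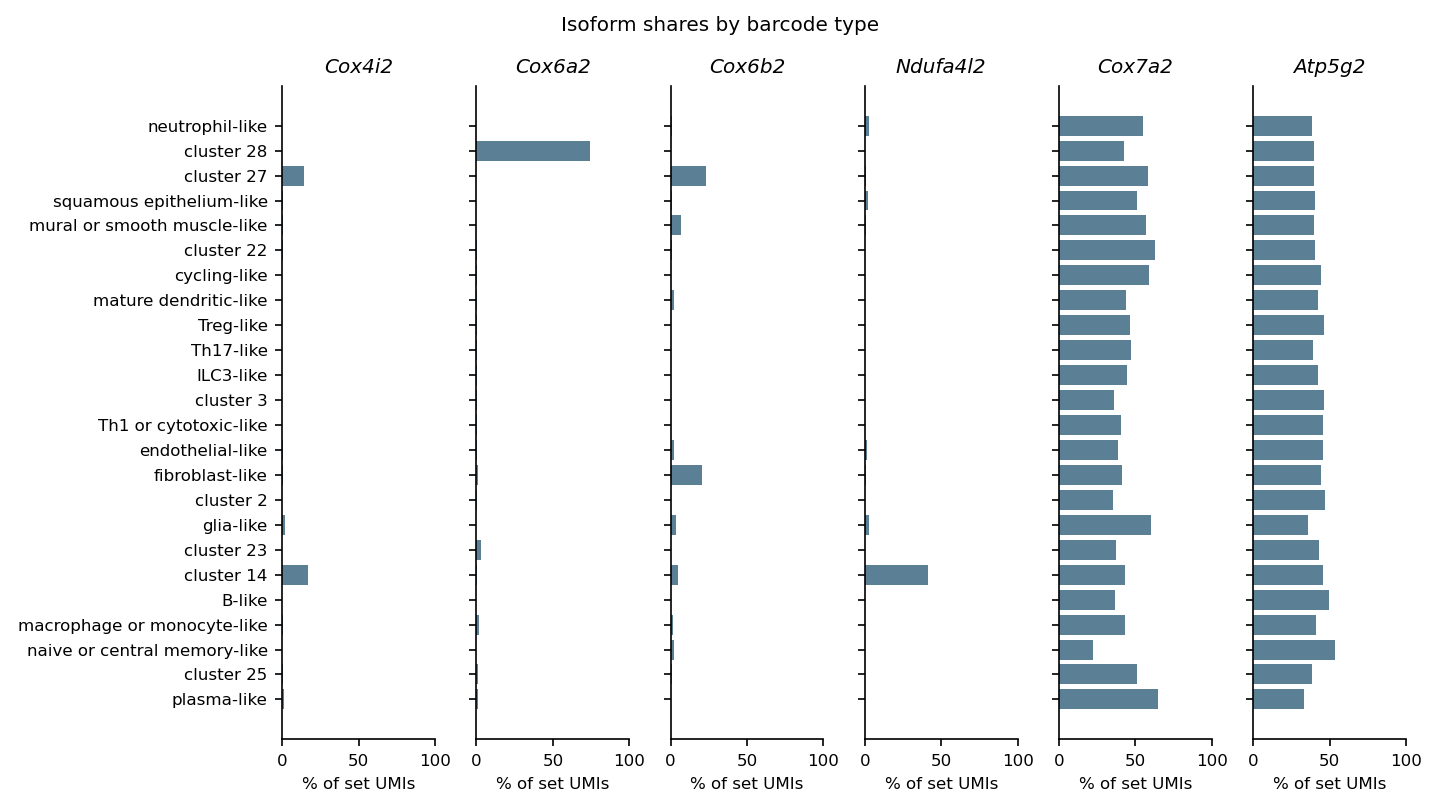
Share of the UMIs of an isoform set (%, horizontal axis) given by Cox4i2, Cox6a2, Cox6b2, Ndufa4l2, Cox7a2 and Atp5g2 in each barcode type, 1 bar per type, pooled over libraries. Cox6a2 stands out in cluster 28 (74.3%), Ndufa4l2 in cluster 14 (41.3%), and Cox7a2 is lowest in naive or central memory-like T cells (22.2%).

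In CD4 T barcodes Sdhd and Sdha of complex II, Ndufs1 of complex I and Atp5g2 of complex V rose after DSS, and genes of complex I, its assembly and complex IV fell. Over both genotypes, 4 of the 86 genes tested were higher after DSS and 8 were lower at an adjusted p under 0.05 (edgeR quasi-likelihood test, Benjamini-Hochberg over all 11030 genes). Of all genes tested, 9.28% were called higher and 9.28% lower, so the higher count lies below that background and the lower count near it. The median log2 fold change of the 86 was -0.124, against 0.011 for all genes, and 24.4% of them were positive. Fold changes are on the TMM scale, while the CPM below are plain shares of each library's CD4 T UMIs. Without TMM scaling the median of all genes became 0.085 and that of the 86 became -0.051, with 4 higher and 5 lower. Leaving out 1 library gave 1 higher and 4 lower without untreated wildtype 1, 1 and 0 without untreated wildtype 2, 1 and 3 without untreated mutant 1, 1 and 2 without untreated mutant 2, 2 and 5 without DSS wildtype 1, 1 and 1 without DSS wildtype 2, 3 and 5 without DSS mutant 1, and 2 and 3 without DSS mutant 2. Treg-like barcodes were 17.3% and 14.9% of CD4 T in untreated wildtype and mutant mice and 28.7% and 26.6% after DSS. Other subsets differed between the libraries of a group. Th17-like barcodes were 15.3% and 18.4% in untreated wildtype and 12.5% and 30.1% in untreated mutant libraries. After DSS they were 19.6% and 9.15% in wildtype and 34.8% and 7.89% in mutant libraries. Th1 or cytotoxic-like barcodes were 7.65% and 24.6% in DSS mutant libraries. The part of this makeup in the CD4 T comparisons, by treatment or genotype, was not tested.

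Sdhd, a membrane anchor of complex II, stood at 22.1 and 20.02 CPM in untreated wildtype, 21.4 and 21.2 in untreated mutant, 32.3 and 32.2 in DSS wildtype and 34.5 and 34.4 CPM in DSS mutant libraries. All 4 treated libraries lay above all 4 untreated ones, and the fold change was 0.58 ± 0.09 (log2, SE) with an adjusted p of 0.00547. Sdha, the succinate-oxidising flavoprotein, stood at 67.9, 65.1, 63.5 and 66.6 CPM in the same order in untreated libraries and at 81.1, 83.2, 82.6 and 91.9 CPM after DSS. Its groups did not overlap either, with a fold change of 0.29 ± 0.08 and an adjusted p of 0.0294. Sdhc did not pass the test (0.27 ± 0.12, adjusted p = 0.13), nor did Sdhb, the iron-sulfur subunit (0.08 ± 0.08, adjusted p = 0.487), whose groups overlapped. Summed over its 4 genes, complex II took 0.0162% to 0.0179% of UMIs in untreated and 0.0213% to 0.0224% in treated libraries, with no overlap, while all 94 genes together took 1.42% to 1.62% and 1.5% to 1.54%.

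Of the 37 complex I genes tested, 1 rose and 3 fell (median -0.111). Ndufs1, the largest core subunit, which carries iron-sulfur clusters, went from 27.4, 29.8, 28.4 and 26.7 CPM to 36.0, 36.8, 39.2 and 34.2 CPM, with no overlap (0.30 ± 0.09, adjusted p = 0.0402). Ndufa5, an accessory subunit of the matrix arm, went the other way, from 79.9, 89.6, 94.3 and 80.1 CPM to 70.0, 64.4, 64.9 and 67.6 CPM, with no overlap (-0.44 ± 0.09, adjusted p = 0.0112). Ndufa9, which helps to hold the matrix arm to the membrane arm, fell by 0.40 ± 0.10 (adjusted p = 0.0269) and Ndufb2, of the membrane arm, by 0.30 ± 0.09 (adjusted p = 0.0418), with overlapping libraries in each. The core subunit Ndufv1 (-0.09, adjusted p = 0.603) and the accessory Ndufb8 (-0.24, adjusted p = 0.0872) did not pass. Of the 8 assembly factors, Ndufaf4 went from 26.4, 27.5, 31.4 and 34.0 CPM to 23.9, 18.9, 21.4 and 24.5 CPM without overlap (-0.49 ± 0.11, adjusted p = 0.0167). Ndufaf6 fell by 0.73 ± 0.20 (adjusted p = 0.0332) from low levels that overlapped, and the other 6 lay between -0.17 and 0.18 and did not pass.

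None of the 9 complex III genes passed the test with edgeR (1 at an unadjusted p under 0.05). The core subunits gave 0.13 for Uqcrc1, 0.15 for Uqcrc2, -0.05 for Uqcrfs1, the Rieske protein, and -0.03 for Cyc1, the cytochrome that reduces cytochrome c. In complex IV, 3 of 12 fell, and these were the 3 Cox7a genes. Cox7a1, the heart and muscle form, went from 2.40, 3.21, 2.61 and 2.86 CPM to 1.05, 0.827, 1.40 and 1.21 CPM without overlap (-1.39 ± 0.29, adjusted p = 0.0133), on 116 UMIs in all. Cox7a2l went from 361, 421, 373 and 363 CPM to 349, 322, 326 and 324 CPM, also without overlap (-0.27 ± 0.08, adjusted p = 0.0452). Cox7a2 fell by 0.29 ± 0.09 (adjusted p = 0.0406) with overlap. Of the other subunits, Cox4i1 (0.03), Cox5a (-0.23), Cox5b (-0.14), Cox6c (-0.09) and Cox7c (-0.05) did not pass.

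Of the 16 complex V genes tested, Atp5g2, 1 of the c subunit genes, passed. It stood at 279, 298, 313 and 286 CPM before and at 375, 384, 353 and 419 CPM after DSS, with no overlap (0.31 ± 0.08, adjusted p = 0.0321). The catalytic core did not pass, with 0.06 for Atp5a1, -0.14 for Atp5b, -0.14 for Atp5c1 and -0.20 for Atp5d, and the median of the complex was -0.158.

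**Figure D3:**
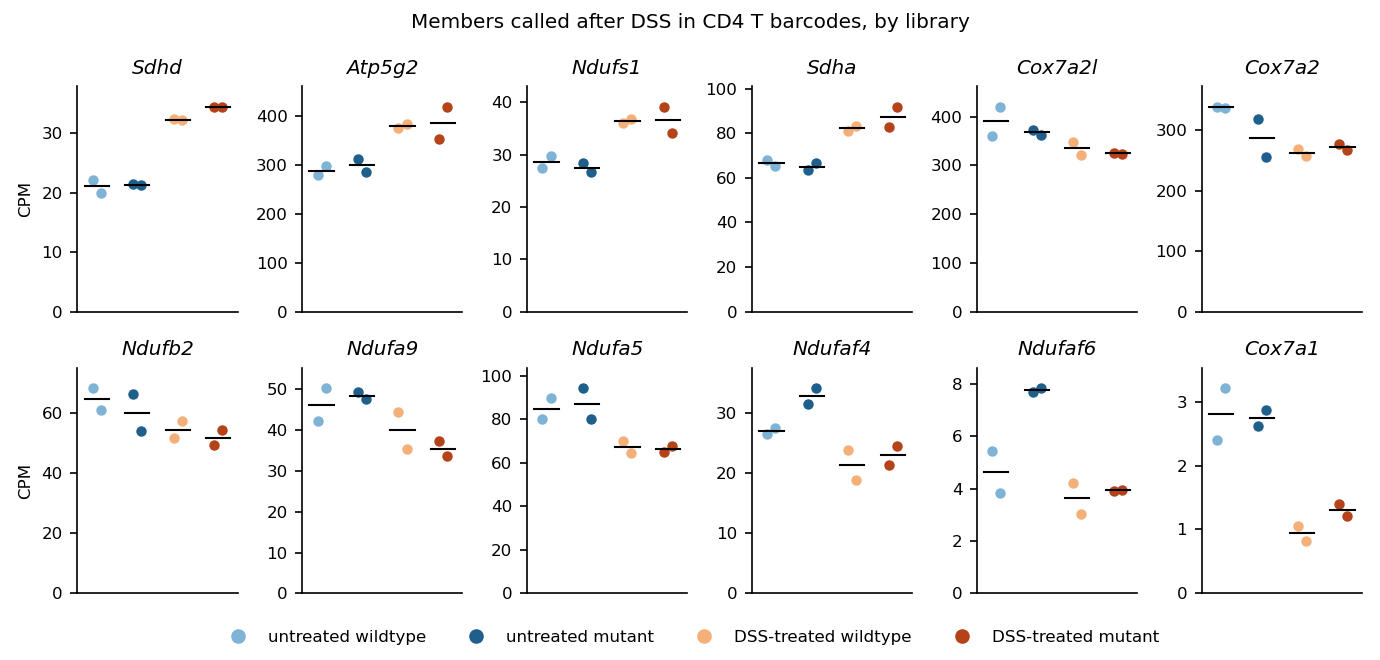
CPM (vertical axes) in each of the 8 libraries for the 12 genes called in CD4 T barcodes over both genotypes. Points are libraries by group and lines are group means. The Sdhd points lie from 20.02 to 22.1 CPM in untreated and from 32.2 to 34.5 CPM in treated libraries, while Cox7a2 and Ndufa9 overlap.

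Within a genotype the DSS comparison has 2 libraries a side. In wildtype mice edgeR called 0 of the 86 genes, against 0.308% of all genes, with 3 up and 11 down if p is left unadjusted (under 0.05), 16.3% against 18.7% of all genes, and 0 by DESeq2, and the median was -0.145. In mutant mice, where 2.47% of all genes were called higher and 3.03% lower, Sdhd rose (0.61, adjusted p = 0.0331) and Ndufa5 fell (-0.48, adjusted p = 0.0493). DESeq2 called 0 there, and so did edgeR without any 1 of the 4 untreated libraries or without DSS mutant 2. Without DSS wildtype 1 or 2 it called 1 higher and 2 lower, and without DSS mutant 1 it called 1 higher.

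No gene of the set passed a test between genotypes in CD4 T barcodes. Between untreated mutant and wildtype mice edgeR called 0 of 86 (0% of all genes) and DESeq2 0. The assembly factor Ndufaf6 alone had an unadjusted p under 0.05, at 0.75 ± 0.28, against 5.31% of all genes. The median over the 86 genes was -0.067, and -0.0186 without untreated mutant 2, the library with the lowest summed level of the 8, 1.42% against 1.57% to 1.62% in the other 3 untreated ones. After DSS the count was again 0 (0% of all genes), and DESeq2 also called 0. Unadjusted, 0 had a p under 0.05 (1.64% of all genes). The difference of the DSS effect between genotypes gave 0 as well (0% of all genes), 0 by DESeq2 and 0 below 0.05 before adjustment (4.03% of all genes). The median of that difference was 0.045, and -0.0024 without untreated mutant 2.

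In Th17-like barcodes Ndufa5, Ndufa13 and Cox7a2 were lower after DSS, a count near the share over all genes. Of 80 genes tested, 0 rose (3.13% of all genes) and 3 fell (3.16% of all genes), with 2 up and 28 down if p is left unadjusted (under 0.05), 37.5% against 24.2% of all genes, and 2 lower by DESeq2. Ndufa5 went from 71.4, 86.0, 83.8 and 74.0 CPM to 47.2, 52.7, 56.0 and 59.3 CPM, with no overlap (-0.60 ± 0.14, adjusted p = 0.0164). Ndufa13, a membrane arm subunit also known as GRIM-19, fell by 0.42 ± 0.12 (adjusted p = 0.0399) and Cox7a2 by 0.40 ± 0.11 (adjusted p = 0.04), neither with overlap. Complex I as a sum took 0.378% to 0.427% of UMIs before and 0.324% to 0.359% after DSS, with no overlap, and the median over the 80 genes was -0.197 against 0.008 for all genes. Sdhd gave 0.16 ± 0.21 (adjusted p = 0.686) with overlapping libraries, from 18.7 to 26.7 CPM after DSS. Leaving out 1 library gave 0 to 7 lower calls: 0 without untreated wildtype 2 or untreated mutant 1, 1 without untreated wildtype 1, DSS wildtype 2 or DSS mutant 2, 2 without untreated mutant 2 or DSS wildtype 1, and 7 without DSS mutant 1. Without TMM scaling the count was 1.

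In Treg-like barcodes 2 of 83 genes rose (5.79% of all genes) and 2 fell (6.32% of all genes). Atp5g2 went from 270.4, 259, 289 and 269 CPM to 344, 374, 357 and 397 CPM (0.40 ± 0.10, adjusted p = 0.015), and Sdhd from 19.2, 20.2, 23.8 and 28.7 CPM to 32.6, 29.4, 43.4 and 33.5 CPM (0.55 ± 0.17, adjusted p = 0.0456). In both genes every treated library lay above every untreated one. Ndufa5 fell by 0.38 ± 0.12 (adjusted p = 0.0442) without overlap and Ndufa9 by 0.50 ± 0.16 (adjusted p = 0.0498) with overlap. The median was -0.037 against 0.008 for all genes, and whether the DSS effect differed between Treg-like and Th17-like barcodes was not tested. DESeq2 called 1 higher and 0 lower. Without untreated wildtype 2, untreated mutant 2 or DSS wildtype 2 the count was 0, without untreated mutant 1 it was 1, and without untreated wildtype 1, DSS wildtype 1 or DSS mutant 2 it was 2.

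In macrophage or monocyte-like barcodes genes of every complex fell after DSS, in complex II 1 of 4. Of 89 genes tested, 2 rose, against 12.5% of all genes, and 43 fell, against 12.6%, and the median was -0.364 against 0.001 for all genes. In complex I 1 rose and 23 of 37 fell, in complex III 4 of 9, in complex IV 6 of 15 and in complex V 7 of 16, with 2 of the 8 assembly factors, while in complex II 1 rose and 1 fell. DESeq2 called 1 higher and 32 lower. Without TMM scaling, where the median of all genes was 0.156, 5 were higher and 20 lower, with a median of -0.207.

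Ndufa5 stood at 62.4, 75.0, 74.8 and 64.0 CPM before and at 46.1, 46.4, 42.3 and 42.8 CPM after DSS (-0.80 ± 0.11, adjusted p = 0.00123). Ndufa12, an accessory subunit of the matrix arm, went from 48.3, 67.5, 65.1 and 63.8 CPM to 43.0, 38.4, 32.9 and 33.6 CPM (-0.89 ± 0.13, adjusted p = 0.00152). Uqcrb, a complex III subunit near the quinone site, went from 131, 152, 152 and 145 CPM to 103, 91.9, 102 and 87.9 CPM (-0.75 ± 0.12, adjusted p = 0.00176). None of the 3 overlapped between treated and untreated libraries. Ndufa13 fell by 0.87 ± 0.14 (adjusted p = 0.00236), Atp5j2, the f subunit of complex V, by 0.64 ± 0.11 (adjusted p = 0.00289), Ndufs8, an iron-sulfur core subunit, by 0.63 (adjusted p = 0.00419) and the assembly factor Ndufaf2 by 0.87 ± 0.17 (adjusted p = 0.00473). Ndufa4 fell by 0.59 (adjusted p = 0.00477) and Ndufa9 by 0.71 (adjusted p = 0.00484). The promoter genes Ndufa11, a membrane arm subunit, and Atp5k, the e subunit of complex V, fell by 0.55 ± 0.13 (adjusted p = 0.0122) and 0.43 ± 0.12 (adjusted p = 0.0259). Cox5b, a nuclear subunit of complex IV, fell by 0.58 (adjusted p = 0.00766) and Cyc1 by 0.52 (adjusted p = 0.012).

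Against these, Sdhd went up from 29.3, 29.1, 32.0 and 25.2 CPM to 41.9, 49.4, 53.2 and 43.2 CPM (0.54 ± 0.13, adjusted p = 0.0114), and Ndufs1 from 21.1, 21.3, 22.1 and 23.2 CPM to 31.0, 31.5, 32.2 and 37.1 CPM (0.43 ± 0.12, adjusted p = 0.0193). Neither overlapped. Sdhb fell by 0.38 ± 0.12 (adjusted p = 0.036), and Sdha, at 0.20, did not pass (adjusted p = 0.168).

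The makeup of the macrophage-like barcodes moved with treatment. The summed level of its 9 defining markers, all detected, was 2.93% to 4.31% of UMIs before and 2.01% to 2.19% after DSS, that of the 8 T cell markers 0.0307% to 0.0427% and 0.0445% to 0.0666%, and that of the 5 plasma cell markers 0.0309% to 0.0548% and 0.0560% to 0.108%, none overlapping. Median UMIs per barcode were 3203 to 4942 before and 2384 to 3297 after. The part of these shifts in the result was not tested. On the authors' list of kept cells were 3031 of the 8523 barcodes of cluster 4 and 252 of the 2521 of cluster 12. Among the 8% with the highest doublet scores were 13.4% of barcodes in cluster 4 and 12.5% in cluster 12. The part of mixed barcodes was not tested. Of the 2 macrophage-like clusters taken alone, cluster 4 gave 3 higher and 49 lower and cluster 12 gave 0 higher and 23 lower. The shares of all genes called in these 2 fits are not given here, so these counts have no background beside them. The called total was 13 lower without untreated wildtype 2, 16 lower without DSS wildtype 2, 1 higher and 20 lower without untreated mutant 1 or DSS mutant 2, and 2 higher and 27 lower without DSS wildtype 1.

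The mitochondrially encoded genes of the same complexes did not fall with the nuclear ones in these barcodes. Their summed share was 3.22% to 3.78% before and 4.42% to 4.83% after DSS, with no overlap, and of the 13 genes 2 rose and 1 fell. These counts and those of the lists that follow stand beside 12.5% of all genes called higher and 12.6% called lower. Of 77 mitochondrial ribosome genes 1 rose and 27 fell (median -0.354), and of 36 other assembly factors 1 rose and 8 fell, the riser being Cox17, a copper chaperone of complex IV (0.90). Of 14 regulators of mitochondrial biogenesis 5 rose and 0 fell. Gabpa (0.61) and Nrf1 (0.52), genes of some of the factors whose letters were searched above, were among them and were picked after their values were seen. Values of Yy1 and of Esrra, a gene of an estrogen-related receptor, are not given here. A link to the promoter letters was not tested. Of the 18 heat shock and dissociation response genes 1 rose and 16 fell (median -1.284). Of 13 genes of the tricarboxylic acid cycle 2 rose and 3 fell, and of 14 genes of glycolysis 1 rose.

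In B-like barcodes every called gene was lower after DSS. Of 78 tested, 0 rose (7.7% of all genes) and 33 fell (9.18% of all genes), with 0 up and 47 down if p is left unadjusted (under 0.05), 60.3% against 31.2% of all genes, and 20 lower by DESeq2. The median was -0.409 against 0.018 for all genes. Complex I had 12 of 37 lower, complex III 3 of 9, complex IV 8 of 11 and complex V 9 of 15, with 1 of 3 assembly factors, Ndufaf8 (-0.78), and 0 of 3 complex II genes. The summed share of the 94 genes was 1.24% to 1.44% before and 1.12% to 1.14% after DSS, with no overlap.

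Cox5b stood at 238, 282, 273 and 218 CPM before and at 163, 138, 160.2 and 155 CPM after DSS (-0.81 ± 0.13, adjusted p = 7.71e-05). Cox7b, a small subunit of the same complex, went from 232, 189.7, 195 and 147 CPM to 130.0, 123, 119 and 127 CPM (-0.70 ± 0.14, adjusted p = 0.000815). Atp5f1, of the peripheral stalk of complex V, went from 250.4, 287, 272 and 260.2 CPM to 232, 182, 183 and 172 CPM (-0.59 ± 0.13, adjusted p = 0.00154). In each the treated libraries all lay below the untreated ones. Ndufb2 fell by 0.94 ± 0.19 (adjusted p = 0.000977), Ndufa12 by 0.92 ± 0.19 (adjusted p = 0.00129), Atp5j by 0.62 ± 0.13 (adjusted p = 0.00141) and Ndufb7 by 0.66 ± 0.15 (adjusted p = 0.00188). Uqcr10 fell by 0.69 ± 0.15 (adjusted p = 0.00145) with overlap, Atp5c1, the central shaft, by 0.57 (adjusted p = 0.00406) and Atp5k by 0.77 (adjusted p = 0.00439). Ndufa11 fell by 0.49 ± 0.15 (adjusted p = 0.0240) without overlap. Sdha (0.31 ± 0.15, adjusted p = 0.163), Sdhd (0.18 ± 0.30, adjusted p = 0.731) and Cox4i1 (-0.15, adjusted p = 0.358) did not pass.

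B-like barcodes were few, from 156 to 1287 per library, and 42 of the 3941 were on the authors' list. Their B cell markers, all 5 detected, summed to 0.260% to 0.280% before and 0.249% to 0.283% after DSS. Cytosolic ribosome genes took 28.6% to 30.9% of UMIs before and 25.4% to 26.7% after, with no overlap, and of 70 mitochondrial ribosome genes 18 fell (median -0.336). The list counts here stand beside 7.7% of all genes called higher and 9.18% called lower. Of 7 genes of cytochrome c and carriers 4 fell, and of 13 tricarboxylic acid cycle genes 3 fell. Of 13 mitochondrially encoded genes 2 fell, and of 18 heat shock and dissociation response genes 5 rose and 6 fell. The part of these shifts was not tested. Without TMM scaling 18 genes were lower, with a median of -0.302 against 0.129 for all genes. The count was 13 without untreated wildtype 2, 17 without DSS mutant 1 and 18 without DSS wildtype 2.

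In fibroblast-like barcodes Sdhd, Uqcrq, Ndufa1, Atp5g3 and Atp5g2 were higher after DSS, fewer calls than the share over all genes would give. Of 91 genes tested, 5 rose (10.7% of all genes) and 0 fell (9.52% of all genes), with 12 up and 6 down if p is left unadjusted (under 0.05), 19.8% against 36.2% of all genes, and 4 higher and 0 lower by DESeq2. Sdhd went from 22.3, 20.8, 31.3 and 29.2 CPM to 47.4, 37.4, 35.2 and 37.3 CPM (0.68 ± 0.11, adjusted p = 0.00453). Uqcrq, a small complex III subunit, went from 166, 203.4, 200.5 and 189 CPM to 242, 232, 226 and 239 CPM (0.37 ± 0.11, adjusted p = 0.0414). Ndufa1 rose by 0.48 ± 0.14 (adjusted p = 0.0401), Atp5g3 by 0.36 ± 0.10 (adjusted p = 0.0347) and Atp5g2 by 0.33 ± 0.09 (adjusted p = 0.0361), and the groups of these 5 genes did not overlap. The isoform Cox6b2 gave 0.64 ± 0.24 and did not pass (adjusted p = 0.0876). Of 13 genes of the tricarboxylic acid cycle 4 rose and 1 fell, and of 18 heat shock and dissociation response genes 13 fell.

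The clusters that make up the fibroblast-like barcodes changed with treatment: cluster 9 was 50.8% and 52.9% of them in untreated wildtype and mutant mice and 8.53% and 12.1% after DSS, and cluster 15 went from 8.27% and 4.68% to 44.5% and 48.3%. Taken alone, clusters 9 and 13 gave 0 called genes each, cluster 15 gave 2 higher and 1 lower, and cluster 16 gave 4 higher and 4 lower. The shares of all genes called in these fits are not given here, so the counts have no background beside them. Cluster 9 held 27 barcodes in its smallest library and cluster 13 held 42, so 0 calls there do not show that an effect is absent. Uqcrq (-0.0179) and Atp5g3 (-0.00385) in cluster 15 and Ndufa1 (-0.0610) in cluster 9 turned negative, and across 16 alternatives Sdhd kept its call in 13, Ndufa1 in 6, Uqcrq in 4, and Atp5g2 and Atp5g3 in 3 each. Plasma cell markers summed to 0.0690% to 0.137% before and 0.295% to 0.529% after DSS, with no overlap. In cluster 15, 31.7% of barcodes were among the 8% with the highest doublet scores, against 15.9% in cluster 9, 19.1% in cluster 13 and 12.0% in cluster 16. Its marker scores (log2) were 2.91 for macrophages or monocytes and 2.93 for plasma cells, beside 6.92 for fibroblasts. The part of plasma cell markers and of mixed barcodes was not tested. The count was 1 higher without any 1 of the 4 untreated libraries, DSS wildtype 2 or DSS mutant 2, 3 higher without DSS wildtype 1, and 8 higher and 3 lower without DSS mutant 1.

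**Figure D4:**
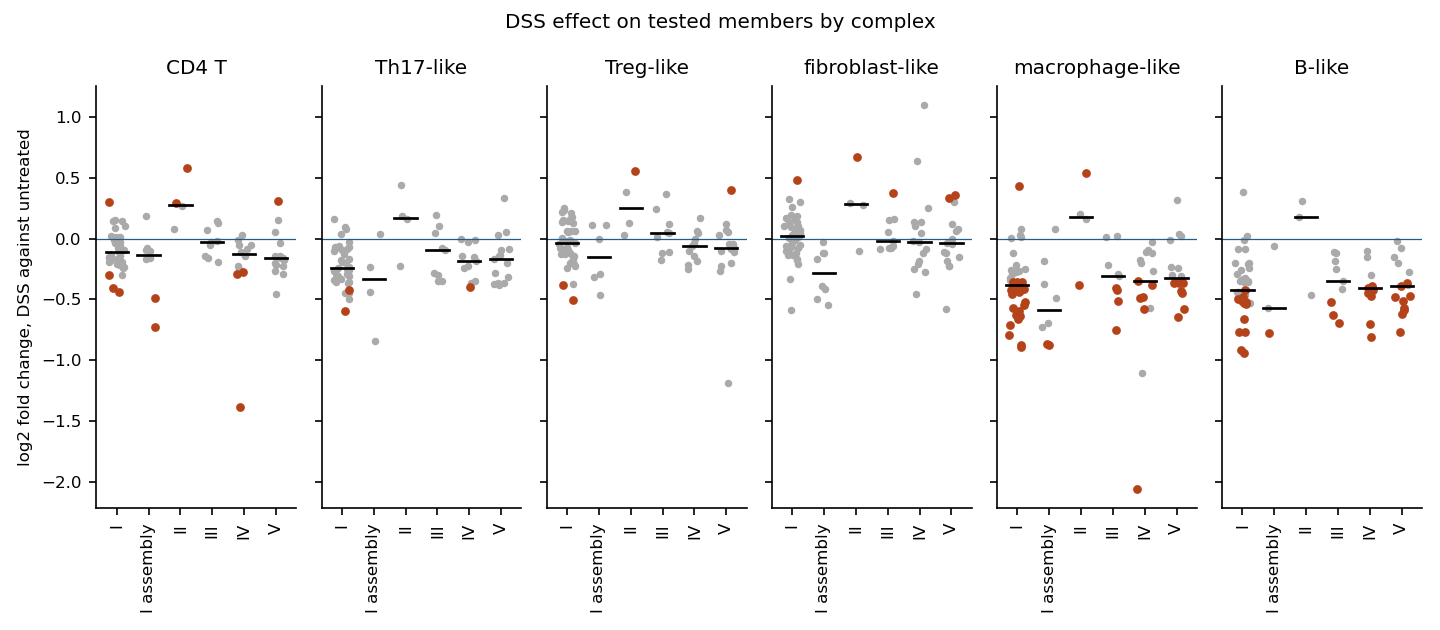
Log2 fold change after DSS (vertical axis, both genotypes) for each tested gene by complex in 6 populations. Red points have an adjusted p under 0.05, grey points do not, and black lines are medians. The macrophage-like and B-like points lie mostly below 0, with medians over all genes of the set of -0.364 and -0.409.

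Whether the DSS effect differed from that in CD4 T barcodes was tested directly in 3 populations, with the library as a term. In macrophage-like barcodes 16 of 89 genes had a lower effect, against 5.53% of all genes, and 0 a higher one, and the median difference was -0.232 against -0.009 for all genes. They were 10 of 37 complex I genes, 4 of 9 complex III genes, Sdhb and Ndufaf2. Uqcrb differed by -0.61 ± 0.11 (adjusted p = 0.00497), Ndufa12 by -0.69 ± 0.13 (adjusted p = 0.00703) and Ndufb9 by -0.53 ± 0.10 (adjusted p = 0.0071). The count was 24 lower and 1 higher without untreated wildtype 1, 4 lower without untreated wildtype 2, untreated mutant 1 or DSS mutant 2, 6 lower without untreated mutant 2, and 9 lower and 1 higher without DSS wildtype 1. In B-like barcodes 16 of 86 had a lower effect, against 1.85% of all genes, led by Cox5b (-0.69 ± 0.12, adjusted p = 0.00028), Ndufb7 (-0.65 ± 0.14, adjusted p = 0.00395) and Ndufb9 (-0.62 ± 0.14, adjusted p = 0.00507), with a median difference of -0.285 against -0.020. Of these 86, 78 had passed the filter in B-like barcodes themselves, as had 6373 of the genes tested there against 10667 here, so the share over all genes includes many that are low in B-like barcodes. The B-like count was 7 without untreated mutant 1 or 2, 6 without DSS wildtype 2 and 3 without DSS mutant 1. In fibroblast-like barcodes 1 gene of 91 had a higher effect, below the share of 2.68% of all genes, and this was Uqcrq (0.54 ± 0.10, adjusted p = 0.0095).

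**Figure D5:**
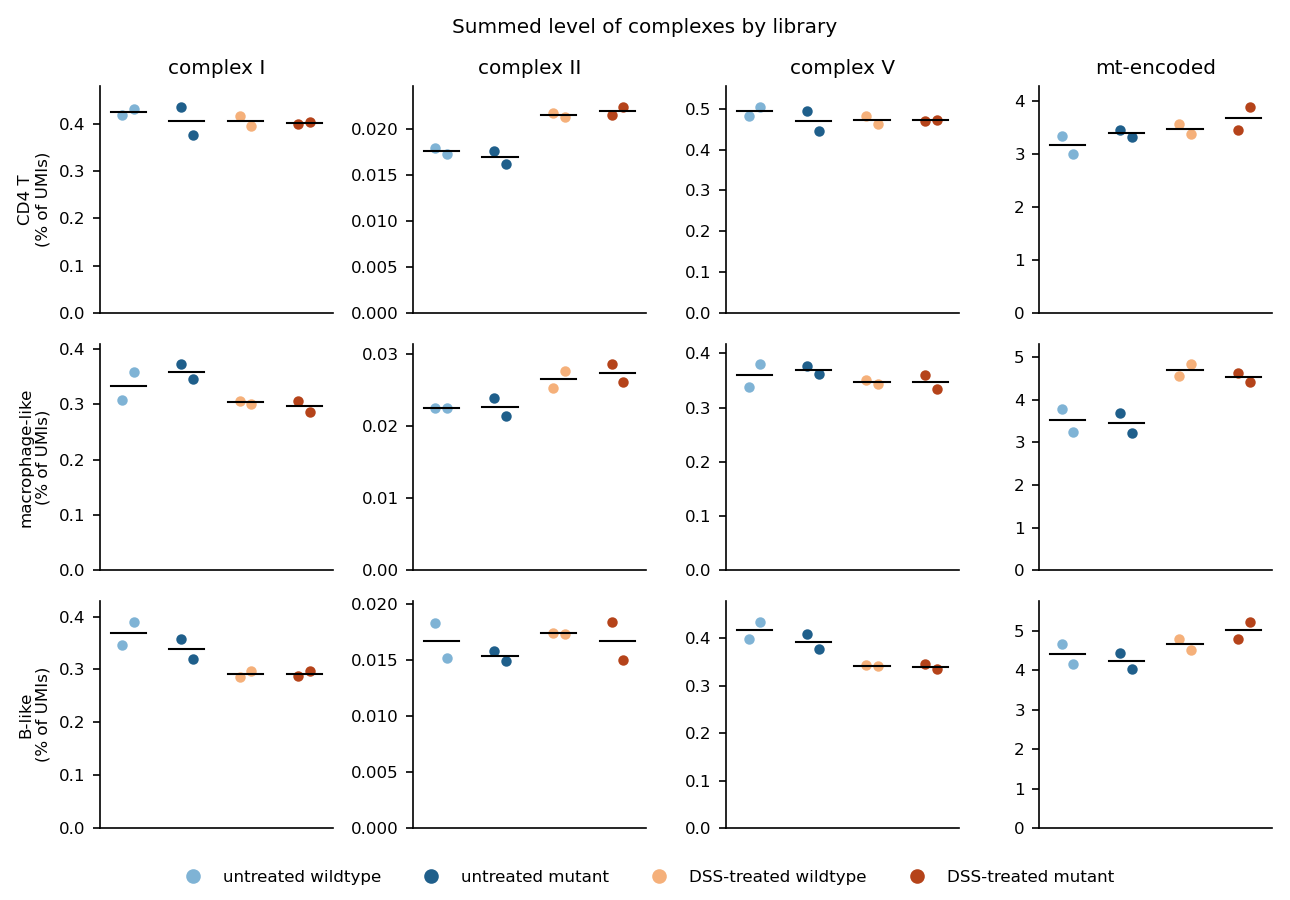
Share of UMIs (%, vertical axes) of complexes I, II and V and of the mitochondrially encoded genes in CD4 T, macrophage-like and B-like barcodes. Points are libraries by group and lines are group means. Complex II in CD4 T barcodes lies from 0.0162% to 0.0179% in untreated and from 0.0213% to 0.0224% in treated libraries.

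Other gene lists of the pathway were followed in CD4 T barcodes, where 9.28% of all genes were called in each direction. After DSS 4 of 13 mitochondrially encoded genes fell (median -0.115), 1 of 13 tricarboxylic acid cycle genes rose and 1 fell, 2 of 7 genes of cytochrome c and carriers fell, and 4 of 36 other assembly factors fell. Of 77 mitochondrial ribosome genes 3 rose and 10 fell, of 15 regulators of biogenesis 2 rose and 3 fell, and of 14 glycolysis genes 1 rose and 1 fell. Of the 18 heat shock and dissociation response genes 11 fell (median -0.539). Their summed level was 1.19% and 1.66% in untreated wildtype, 2.63% and 2.67% in untreated mutant and 1.24% to 1.43% in treated libraries. The untreated mutant libraries stood highest. Of the untreated wildtype libraries, that at 1.66% lay above the treated ones and that at 1.19% below them.

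The mutation, averaged over treatments, was also compared in the other populations, where edgeR called 0 genes of the set in each and DESeq2 called 0 in each. The share of all genes called was 0% in Th17-like, Treg-like, macrophage-like and fibroblast-like barcodes and 0.157% in B-like ones. Those called in B-like barcodes included heat shock genes that were higher in the mutant. Among these were Hspa1a (1.64 ± 0.24, edgeR adjusted p = 0.000484) and Hsp90aa1 (0.72 ± 0.13, edgeR adjusted p = 0.00581). The part of that response in the genotype comparison was not tested. At an unadjusted p under 0.05 there were 0 in Th17-like, 0 in Treg-like, 0 in macrophage-like, 1 in fibroblast-like and 4 in B-like barcodes. Over all genes that share was 4.03% in Th17-like, 3.48% in Treg-like, 3.39% in macrophage-like, 2.32% in fibroblast-like and 5.41% in B-like barcodes. The medians were -0.070 in Th17-like, -0.022 in Treg-like, -0.003 in macrophage-like, -0.016 in fibroblast-like and -0.049 in B-like barcodes.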

How the data were processed

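The deposited matrices hold UMI counts per gene and barcode, which the authors made with Cell Ranger 3.1.0 on mm10, and Seurat 4.0.1 is also named, per the submitters' processing notes. How reads that match several near-identical copies were counted is not given in the sources used here, and processed copies of some of these genes make their counts uncertain. Total UMIs per library ranged from 34497509 to 46960005.

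Barcodes with at least 400 genes and under 20% mitochondrial UMIs were kept and clustered with scanpy 1.11.5 (Python 3.11.15) from 2000 variable genes, of which 1776 were used after removing the oxidative phosphorylation, mitochondrially encoded and pathway list genes, with 30 principal components, 15 neighbours and Leiden resolution 1.0. Clusters were named "-like" from marker lists, and 9 of the 30 stayed unnamed and are given by number. Doublets were not removed, because the threshold Scrublet chose marked 0 barcodes. Counts were summed per library and population and tested with edgeR 4.0.16 (R 4.3.3): TMM factors, low-count filter, 1 model of the 4 groups over 8 libraries, quasi-likelihood test, Benjamini-Hochberg over all genes tested, threshold 0.05. The scripts were tested on simulated data.

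Genes named with values were the called ones (at most 20 per CD4 T comparison and 10 per comparison elsewhere, in order of adjusted p), fixed core subunits, isoform sets and the Ndufaf genes. Not every fixed gene is reported here. Ndufa11 and Atp5k in the promoter set, the subset genes Sdhc, Ndufv2, Cox7c, Atp5h, Cox7a2l and Uqcrh, and the pathway genes Gabpa, Nrf1 and Cox17 were chosen after their values were seen. The symbol rule uses no measured value, but this set of genes and the lists were taken up with earlier results of these data known. Of the 94 rows 8 were not tested in CD4 T barcodes for low counts. Alternatives were DESeq2 1.42.0, RLE factors, no filter, leaving out each library and, in CD4 T barcodes, removal of mitochondrially encoded UMIs, all T cell barcodes, coarser clustering, the 4 libraries compared alone and a block of neighbouring title numbers. Unscaled totals, single clusters, removal of the 8% highest doublet scores or of heat shock genes, and the differences between populations were added after seeing the data.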

Additional observations from a re-analysis of the deposited data

Results flagged for a closer look

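The DSS effect differed from that in CD4 T barcodes of the same libraries, by a test of the difference itself, for some of these genes. It was lower for 16 genes in macrophage-like barcodes, against 5.53% of all genes. The log2 differences were -0.61 for Uqcrb, -0.69 for Ndufa12 and -0.53 for Ndufb9. Calls in either direction ranged from 4 to 25 when 1 library was left out. The effect was lower for 16 genes in B-like barcodes, against 1.85% of all genes. The differences were -0.69 for Cox5b, -0.65 for Ndufb7 and -0.62 for Ndufb9, and calls in either direction ranged from 3 to 17. In B-like barcodes the count was 10 with RLE factors and 6 without a scaling factor. The share is over 10667 genes tested in the joint fit, while 6373 genes passed the filter in B-like barcodes alone. In fibroblast-like barcodes the effect was higher for 1 gene of 91, Uqcrq at 0.54, which is below the 2.68% of all genes. These 3 comparisons were added after seeing the data.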

How the results depend on the processing

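Among the comparisons with a reported count above 0, 31 of 51 other settings stayed within 1.5 times that count and 20 did not, and of 80 that left out 1 library 28 stayed and 52 did not. In CD4 T barcodes, DSS in wildtype mice gave 2 calls with no filter. DSS in mutant mice gave 0 with DESeq2 and with the 4 mutant libraries alone, 5 with no filter, 4 with all T cell barcodes, and 1 without the highest doublet scores or without heat shock genes. DSS over both genotypes gave 19 with all T cell barcodes. Th17-like barcodes gave 1 without scaling and Treg-like 1 with DESeq2. Macrophage-like barcodes gave 25 without scaling and 23 in cluster 12 alone. Fibroblast-like barcodes gave 0 in cluster 9, 0 in cluster 13, 3 in cluster 15 and 8 in cluster 16. For single clusters the share over all genes is not given here. B-like barcodes gave 20 with DESeq2 and 18 without scaling. The difference from CD4 T gave 10 with RLE factors and 6 without scaling in B-like barcodes, and 3 with RLE factors in fibroblast-like ones. The cause was not tested.

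Leaving out 1 library gave 1 to 8 calls for DSS in CD4 T, 0 to 3 for DSS in mutant CD4 T, 0 to 7 in Th17-like, 0 to 3 in Treg-like, 13 to 46 in macrophage-like, 13 to 34 in B-like and 1 to 11 in fibroblast-like barcodes. For the difference from CD4 T it gave 4 to 25 in macrophage-like and 3 to 17 in B-like barcodes. Of 874 settings of single named genes, 622 kept their direction and side of the threshold, 249 lost the call and 3 reversed, all in single fibroblast clusters: Atp5g3 at -0.00385 and Uqcrq at -0.0179 in cluster 15, and Ndufa1 at -0.0610 in cluster 9. For DSS over both genotypes in CD4 T barcodes, Sdhd kept its call in all 17 alternatives, from 0.52 to 0.65, Ndufa5 in 16, from -0.52 to -0.36, and the other 10 called genes in 6 to 14. Atp5g2 was among these, with its call kept in 9 of 17 and values from 0.22 to 0.38.

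The labels give the groups no shared replicate numbers and do not say what the numbers in the sample titles mean. With neighbouring title numbers of wildtype and mutant samples as a replicate block, the genotype comparisons and the interaction in CD4 T gave 0 calls. They gave 0 without the block as well. No such block joined treated and untreated libraries, so it cannot be applied to the DSS comparisons. The DSS effect cannot be told apart from what these numbers mark. Removing a heat shock cluster was not run, since no cluster was led by such genes. Each group had 2 libraries, and Cox7a1 had 116 UMIs in all CD4 T barcodes.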
